A study of Mus musculus with 6 samples.

Results

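The antioxidant response of the mouse retina was followed through 10 genes: the transcription factor gene Nfe2l2 (NRF2), its inhibitor Keap1, 6 genes that NRF2 is known to induce (Nqo1, Hmox1, Gclc, Gclm, Txnrd1 and Srxn1), and the superoxide dismutases Sod1 and Sod2. They were taken by gene symbol from a table of 25124 gene models. All 10 were found, once each, and all 10 passed the filter on low counts, among 14685 genes tested. NRF2 is held in the cytoplasm by KEAP1 and marked there for degradation. Oxidants and electrophiles modify cysteines of KEAP1, and NRF2 then enters the nucleus and binds antioxidant response elements with small MAF partners. The retina, whose photoreceptors consume much oxygen and carry membranes rich in polyunsaturated fatty acids that oxidise easily, is a tissue in which this defence is often studied.

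Wild-type C57BL/6J mice were compared with C57BL/6J mice that carry the C234W substitution in Elovl2, an elongase of long-chain polyunsaturated fatty acids; whether the allele was on 1 or both chromosomes is not given in the labels. Retinas were taken at 4 months, and poly-A RNA was sequenced in 3 libraries per genotype (wild type WT1A, WT2A and WT2B, and C234W FS3A, FS3B and FS5A). The prefix FS is not explained in the labels, and these libraries were taken as C234W by elimination, so the direction of each fold change rests on that reading. The labels do not tie libraries to individual animals, and the names of some (FS3A with FS3B, WT2A with WT2B) have a number in common, so the p-values below describe the variation among 6 libraries, which may be technical. Counts in genes ran from 14184093 to 19298613 per library. Elovl2 itself was at 142, 138 and 136 CPM (counts relative to library size, scaled by the TMM method) in WT1A, WT2A and WT2B, and at 82.0, 90.1 and 116 CPM in FS3A, FS3B and FS5A (edgeR quasi-likelihood test, adjusted p = 0.102), and a substitution need not alter the transcript level. The 12 rod markers were all detected, and 8 lens markers summed to at most 1.02 CPM. WT1A stood apart from the other wild-type libraries, with 9 pigment epithelium markers summing to 742 CPM against 73.8 to 175 CPM in the other 5 libraries.

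None of the 10 genes passed an adjusted p under 0.05 in edgeR with all 6 libraries, where 1.46% of all tested genes did (0.184% higher in C234W and 1.28% lower). Sod1 and Sod2 were lower in every C234W library than in every wild-type library, and the other 8 genes had groups that overlapped. Of all tested genes, 16.4% lay lower without overlap and 29.1% lay apart in either direction, so 2 of 10 is close to the background. At an unadjusted p under 0.05 the count was again 2 of 10, against 25.4% of all genes. DESeq2 called these same 2, Sod1 and Sod2, against 12.7% of the genes to which it gave an adjusted p. Without WT1A, 4 of the 10 passed in edgeR (Nfe2l2, Srxn1, Sod1 and Sod2), against 18.5% of all genes. The wild-type group is then WT2A and WT2B alone, which have a number in common. With libraries of a common number summed, 0 of the 10 passed, and 0 of all 15189 genes tested in that fit. These are whole-tissue values, in which fewer cells of a type and less RNA per cell cannot be told apart. The median log2 fold change over the 10 genes was -0.12, beside 0.023 over all genes tested. Scaling by total counts alone turned it to 0.066, beside 0.20 over all genes. From the lowest to the highest wild-type library, each of the 8 genes whose groups overlapped spanned more than the difference between the genotype means. A range and a difference of means are unlike measures. For Nfe2l2, Hmox1, Gclc, Txnrd1 and Srxn1 the span was set by WT1A, and WT2A and WT2B lay closer together.

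**Figure D1:**
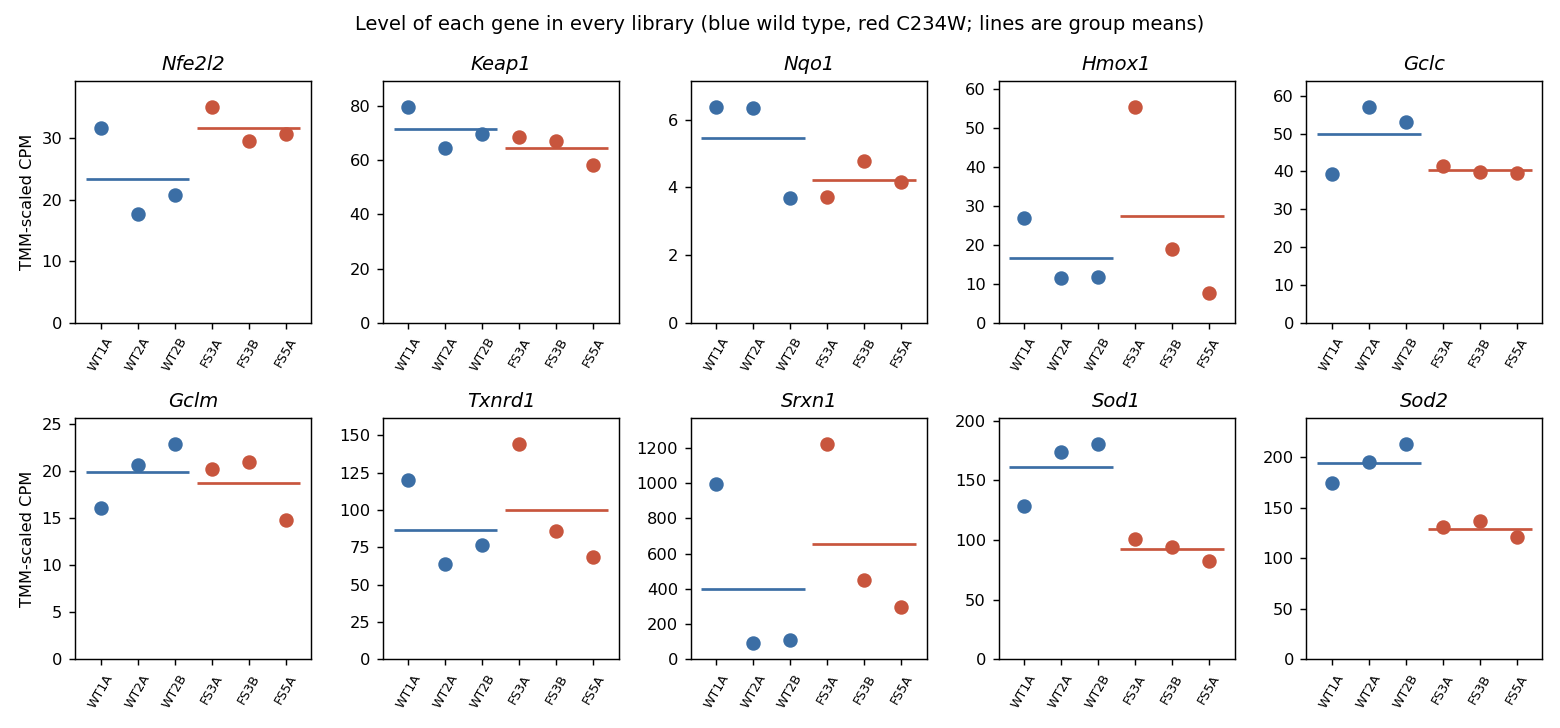
TMM-scaled CPM (y axes, each starting at 0) of the 10 genes in each library (x axes), wild type in blue and C234W in red, with a line at each group mean. Sod1 and Sod2 do not overlap between genotypes, while Srxn1, Hmox1 and Txnrd1 are highest in FS3A and WT1A, one library of each genotype.

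Levels were compared between genes as CPM per kilobase of the counted gene model, averaged over the 6 libraries. Sod1 stood highest at 201 CPM per kilobase, above 98.6% of tested genes, followed by Srxn1 at 188 and Sod2 at 42.4. Txnrd1 was at 27.4, Keap1 at 15.2, Hmox1 at 14.0, Gclc at 12.5, Nfe2l2 at 11.1, Gclm at 9.34 and Nqo1 at 3.14 CPM per kilobase. Only 2 steps in this order separated neighbours in every library, that from Txnrd1 (18.8 to 42.5) to Keap1 (13.1 to 17.9) and that from Gclm (7.18 to 11.1) to Nqo1 (2.38 to 4.13). All other neighbours overlapped. The place of Srxn1 depended on the library, since its level ran from 32.8 to 436 CPM per kilobase.

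Nfe2l2 (NM_010902, mm10 chromosome 2, 75675513 to 75704663, minus strand) was at 31.6, 17.7 and 20.8 CPM in WT1A, WT2A and WT2B, and at 35.1, 29.5 and 30.6 CPM in FS3A, FS3B and FS5A. The C234W libraries lay close together and above WT2A and WT2B, but WT1A lay within their range. Its log2 fold change, 0.44 (SE 0.23), missed the threshold (edgeR, adjusted p = 0.258). Without WT1A it was 0.73 (SE 0.171) and passed (adjusted p = 0.0285), where 9.13% of all genes were called higher. NRF2 is controlled mainly through its protein, so the transcript level is only part of its regulation.

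Keap1 (NM_016679, chromosome 9, 21229730 to 21239332, minus strand) encodes the adaptor that links NRF2 to the CUL3 ubiquitin ligase. It was the steadiest of the 10, with 79.7, 64.6 and 69.8 CPM in wild type and 68.4, 67.2 and 58.3 CPM in C234W. Its highest library stood 1.37-fold above its lowest. The 95% interval of its log2 fold change ran from -0.49 to 0.20 (estimate -0.14, adjusted p = 0.586 in edgeR).

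Srxn1 (NM_029688, chromosome 2, 152105524 to 152111376, plus strand) encodes sulfiredoxin, which repairs peroxiredoxins whose cysteine has been overoxidised. It was at 998, 92.0 and 109 CPM in WT1A, WT2A and WT2B, and at 1224, 451 and 295 CPM in FS3A, FS3B and FS5A. WT1A lay 10.8-fold above WT2A, and the C234W libraries differed among themselves by 4.15-fold. From lowest to highest the range was 13.3-fold, wider than for 99.2% of the 13952 genes with a mean of at least 1 CPM, of which the median gene ranged over 1.85-fold. With this spread the log2 fold change was 0.72 (SE 0.987, 95% interval -1.62 to 3.05, adjusted p = 0.684 in edgeR). Every C234W library was above WT2A and WT2B, and without WT1A the log2 fold change was 2.71 (SE 0.588, adjusted p = 0.0232). Without FS3A the estimate was -0.098 (adjusted p = 0.974), so 1 library on either side set its sign and its call.

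Hmox1 (NM_010442, chromosome 8, 75093618 to 75100593, plus strand), the inducible haem oxygenase, was at 26.7, 11.4 and 11.6 CPM in WT1A, WT2A and WT2B, and at 55.3, 18.9 and 7.62 CPM in FS3A, FS3B and FS5A. The highest and the lowest of the 6 libraries were both C234W, 7.26-fold apart. The log2 fold change was 0.72 (SE 0.679, adjusted p = 0.539 in edgeR), and -0.31 without FS3A (adjusted p = 0.774). Macrophages are a known source of haem oxygenase. The 9 microglia and macrophage markers summed to 39.7 CPM in FS3A, the lowest of the 6 libraries (the others 44.9 to 68.0 CPM). Of these markers only Cd68 was highest in FS3A, at 6.79 CPM. The part of macrophages in the Hmox1 level was not tested.

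Txnrd1 (NM_001042513, chromosome 10, 82859206 to 82897724, plus strand), the cytosolic thioredoxin reductase, was at 120, 63.8 and 76.7 CPM in WT1A, WT2A and WT2B, and at 144, 86.1 and 68.5 CPM in FS3A, FS3B and FS5A. The groups overlapped, with FS3A above all wild-type libraries and WT2A below all C234W libraries. The log2 fold change was 0.20 (SE 0.312, adjusted p = 0.721 in edgeR), and -0.16 without FS3A (adjusted p = 0.797). Srxn1, Hmox1 and Txnrd1 thus shared their 3 highest libraries, in the order FS3A, WT1A and FS3B. Nfe2l2 was also highest in FS3A and next in WT1A.

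Gfap, an intermediate filament of astrocytes and of stressed Muller glia, was at 248 CPM in FS3A, 99.4 in FS3B and 46.8 in WT1A, and between 20.4 and 26.5 CPM in the other 3 libraries, so its 3 highest libraries were those of Srxn1. The 5 astrocyte markers together, none of them at 0, summed to 53.6 to 84.8 CPM in wild type and 60.4 to 286 CPM in C234W. The 4 astrocyte markers other than Gfap did not follow it, and summed to 38.0, 40.0 and 33.2 CPM in WT1A, WT2A and WT2B and to 37.5, 45.3 and 33.9 CPM in FS3A, FS3B and FS5A. The 10 Muller glia markers, none of them at 0, summed to 4540, 5246 and 6287 CPM in WT1A, WT2A and WT2B. In FS3A, FS3B and FS5A they summed to 4270, 4911 and 3644 CPM. Among them, Sox9 and Crym had their 3 highest libraries in FS3A, FS3B and WT1A, and the other markers of that list did not. The 9 pigment epithelium markers, none of them at 0, were high in WT1A but at 108 CPM in FS3A, where Srxn1 was highest. The part of other cells in these levels was not tested.

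**Figure D2:**
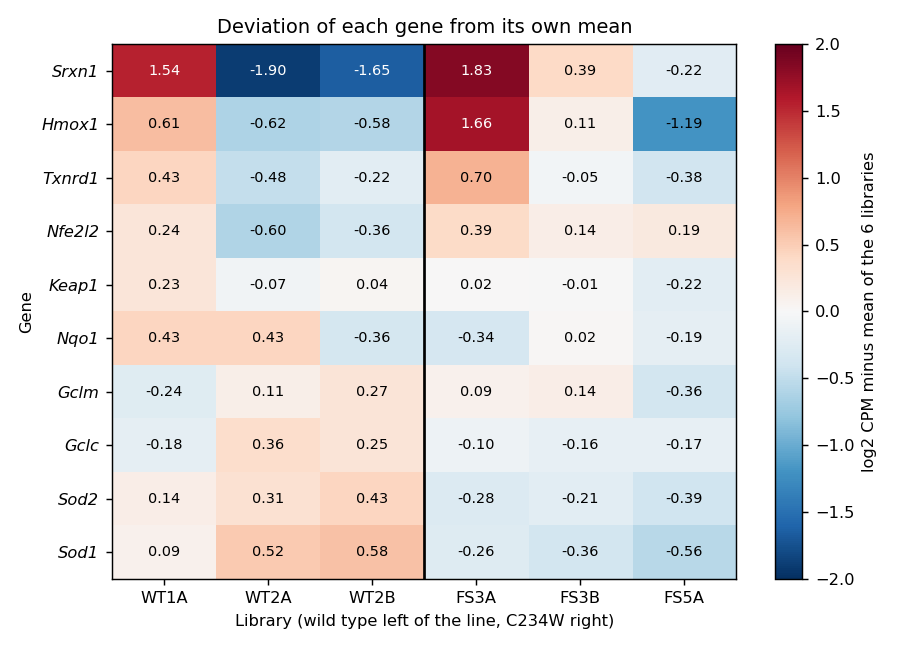
Log2 CPM of each gene (rows) in each library (columns) minus its mean over the 6 libraries, with red above and blue below that mean. Srxn1 spans from -1.90 in WT2A to 1.83 in FS3A and Hmox1 from -1.19 in FS5A to 1.66 in FS3A, while Sod1 and Sod2 are positive in the 3 wild-type libraries and negative in the 3 C234W libraries.

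The sequences before the counted start sites of Srxn1 and Txnrd1 are shown because these genes were high in the same libraries. Antioxidant response elements are described by the core TGACNNNGC, and by the looser form TGANNNNGC, which includes it and was chosen after the promoters were seen. Both strands were searched over 250 bases before the start. Reference promoters (RefSeq table, GRCm38.p6) began at the counted start for 8 of the 10 genes; Hmox1 and Gclc were not matched. In each line, capitals mark matches to TGANNNNGC on either strand, and each stretch ends where the first annotated exon of the gene begins (chr2:152105274-152105515, plus strand, and chr10:82858956-82859178, plus strand).
Srxn1: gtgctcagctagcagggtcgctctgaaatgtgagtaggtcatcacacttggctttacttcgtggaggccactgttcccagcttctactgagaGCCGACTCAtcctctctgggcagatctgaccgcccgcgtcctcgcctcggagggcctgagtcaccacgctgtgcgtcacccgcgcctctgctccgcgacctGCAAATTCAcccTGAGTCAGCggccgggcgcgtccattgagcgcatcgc
Txnrd1: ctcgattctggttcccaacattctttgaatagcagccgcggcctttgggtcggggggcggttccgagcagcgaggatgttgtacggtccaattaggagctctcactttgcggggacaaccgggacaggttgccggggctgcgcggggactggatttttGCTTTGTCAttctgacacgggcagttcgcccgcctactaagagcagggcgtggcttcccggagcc
The Srxn1 stretch held 3 matches to the looser form, on the minus strand at -158 and -57 and on the plus strand at -45 (first base relative to the start site), and no match to TGACNNNGC. The match at -45 reads TGAGTCAGC. The Txnrd1 stretch held 1 match, at -92 on the minus strand, reading TGACAAAGC. Of the 8 genes with a promoter, 4 held TGACNNNGC (Nfe2l2, Gclm, Txnrd1 and Sod1), against 10.2% of 32851 promoters, and 6 held TGANNNNGC, against 35.2%. A match is a description of the letters and not evidence of binding.

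Nqo1 (NM_008706, chromosome 8, 107388225 to 107403205, minus strand), a quinone reductase widely used as a readout of NRF2, was the least abundant of the 10. It was at 6.38, 6.35 and 3.68 CPM in wild type and at 3.72, 4.79 and 4.15 CPM in C234W. WT1A and WT2A stood above all C234W libraries and WT2B below them. The log2 fold change was -0.38 (SE 0.304, adjusted p = 0.46 in edgeR), on 50.5 to 118.5 counts per library.

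Glutamate-cysteine ligase makes the first step of glutathione synthesis, with a catalytic subunit from Gclc and a modifier subunit from Gclm. Gclc (chromosome 9, 77754535 to 77794489, plus strand) was counted on NR_151778, a model with the identifier of a non-coding transcript, although the table lists the gene as protein-coding. It was at 39.2, 57.0 and 53.1 CPM in WT1A, WT2A and WT2B, and at 41.5, 39.8 and 39.7 CPM in FS3A, FS3B and FS5A. The C234W libraries lay within 1.04-fold of each other and below WT2A and WT2B, with WT1A beside them. The log2 fold change was -0.30 (SE 0.176, adjusted p = 0.305 in edgeR), and -0.44 without WT1A (SE 0.135, adjusted p = 0.0572).

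Gclm (NM_008129, chromosome 3, 122245557 to 122267215, plus strand) was at 16.1, 20.6 and 22.9 CPM in wild type and at 20.2, 21.0 and 14.8 CPM in C234W. The groups overlapped throughout, with a 95% interval of the log2 fold change from -0.58 to 0.40 (estimate -0.088, adjusted p = 0.829 in edgeR). Neither subunit was high in both FS3A and WT1A, the pair of libraries in which Srxn1, Hmox1 and Txnrd1 were highest.

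The dismutases convert superoxide to hydrogen peroxide, SOD1 with copper and zinc in the cytosol and SOD2 with manganese in the mitochondrial matrix. Sod1 (NM_011434, chromosome 16, 90220762 to 90226333, plus strand) was at 128, 173 and 181 CPM in WT1A, WT2A and WT2B, and at 101, 93.9 and 82.1 CPM in FS3A, FS3B and FS5A. The lowest wild-type library, WT1A, lay above the highest C234W library. The means were 161 ± 28.4 CPM in wild type and 92.3 ± 9.59 CPM in C234W (SD, n = 3 each), and the log2 fold change was -0.80 (SE 0.176, 95% interval -1.20 to -0.40). It missed the threshold in edgeR (adjusted p = 0.056) and passed in DESeq2 (adjusted p = 0.00303).

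Sod2 (NM_013671, chromosome 17, 13007839 to 13018119, plus strand) was at 174, 196 and 213 CPM in wild type and at 131, 137 and 121 CPM in C234W. Again no C234W library reached a wild-type one. The means were 194 ± 19.6 and 129 ± 8.20 CPM (SD, n = 3 each), with a log2 fold change of -0.59 (SE 0.146, 95% interval -0.92 to -0.26). The adjusted p was 0.0655 in edgeR and 0.0105 in DESeq2. Without WT1A both passed in edgeR (adjusted p = 0.0124 for Sod1 and 0.0198 for Sod2), where 9.39% of all genes were called lower.

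The dismutases differed in how far their values depended on transcript length. Over all tested genes, log2 fold changes followed length, with a median of -0.34 in the fifth with the shortest gene models and of 0.28 in the fifth with the longest. The Sod1 model is 630 bases long and falls among the shortest, and the Sod2 model is 3817 bases long. With the trend of expression on length removed from each library, the log2 fold change of Sod1 went from -0.80 to -0.29 (95% interval -0.65 to 0.065, adjusted p = 0.336). That of Sod2 went from -0.59 to -0.69 (95% interval -1.02 to -0.37, adjusted p = 0.121). No gene of the 14685 passed in that fit, in which 2835 were at an unadjusted p under 0.05, Sod2 among them and Sod1 not.

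**Figure D3:**
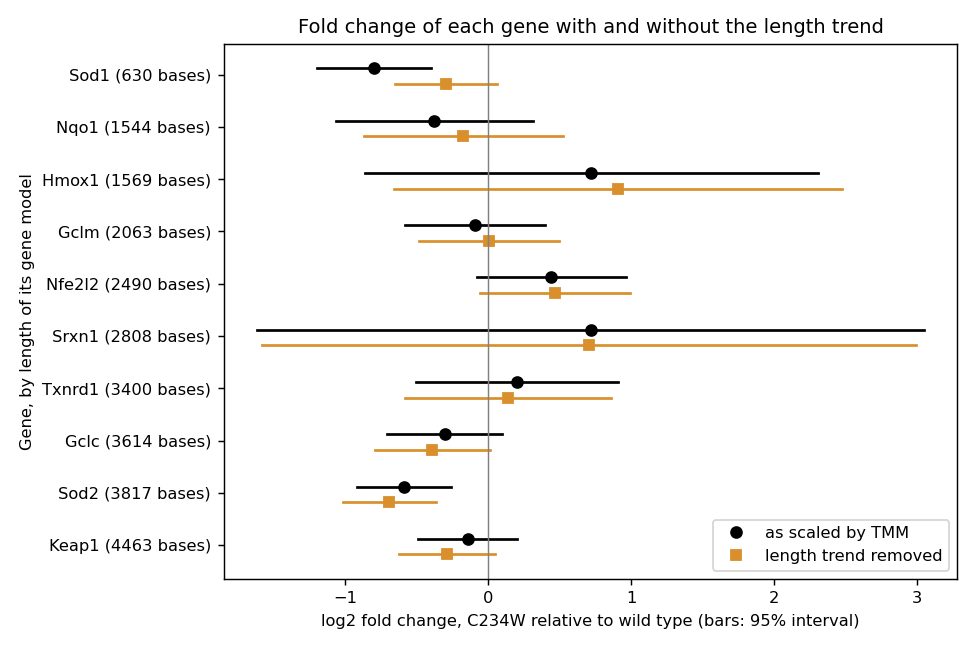
Log2 fold change of C234W relative to wild type (x axis) with its 95% interval for each gene, ordered by gene model length (y axis), as scaled by TMM (black circles) and with the length trend removed (orange squares). Removing the trend moves Sod1, the shortest model, from -0.80 to -0.29 and Sod2 from -0.59 to -0.69, and the intervals of Srxn1 and Hmox1 are the widest.

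Of 16 lists of cell type markers, 3 had sums that lay lower in C234W without overlap and 2 had sums that lay higher. Of single genes, 16.4% of all tested lay lower without overlap and 12.6% higher (29.1% in either direction). No such share was computed for sums. The 12 rod markers, none of them at 0, summed to 109400 to 169500 CPM in wild type and to 71880 to 94980 CPM in C234W. Of the 12, 7 lay lower without overlap, beside 16.4% of all tested genes, although none passed in edgeR. WT1A had the highest rod sum and the lowest Sod1 and Sod2 of the wild-type libraries. The 8 erythrocyte markers, also none at 0, summed to 122 to 230 CPM in wild type and to 60.3 to 83.2 CPM in C234W, and SOD1 is abundant in red cells. Pairs of globin genes among these markers had nearly equal levels in every library, so the sum may count some tags more than once. The 7 oligodendrocyte markers summed to 68.4 to 83.5 CPM in wild type and to 50.7 to 65.7 CPM in C234W. The sums that lay higher in C234W were those of the bipolar markers (901 to 1088 CPM in wild type and 1241 to 1359 CPM in C234W) and of the endothelial markers (195 to 220 CPM and 268 to 326 CPM). The part of these cell types in the Sod1 and Sod2 levels was not tested.

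The stretches before the Sod1 and Sod2 start sites are shown because these were the members whose groups did not overlap (chr16:90220512-90220753, plus strand, and chr17:13007589-13007816, plus strand, GRCm38.p6). Capitals again mark matches to TGANNNNGC.
Sod1: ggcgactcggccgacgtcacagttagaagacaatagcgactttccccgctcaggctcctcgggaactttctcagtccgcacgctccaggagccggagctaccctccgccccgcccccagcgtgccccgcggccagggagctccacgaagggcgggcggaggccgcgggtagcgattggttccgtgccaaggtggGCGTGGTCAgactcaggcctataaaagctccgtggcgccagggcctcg
Sod2: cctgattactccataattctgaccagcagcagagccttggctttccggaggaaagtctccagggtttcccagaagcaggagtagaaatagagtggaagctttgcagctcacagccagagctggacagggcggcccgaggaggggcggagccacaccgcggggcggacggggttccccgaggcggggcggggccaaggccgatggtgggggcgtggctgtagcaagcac
Sod1 held 1 match, at -56 on the minus strand, reading TGACCACGC, and Sod2 held none in this window.

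**Figure D4:**
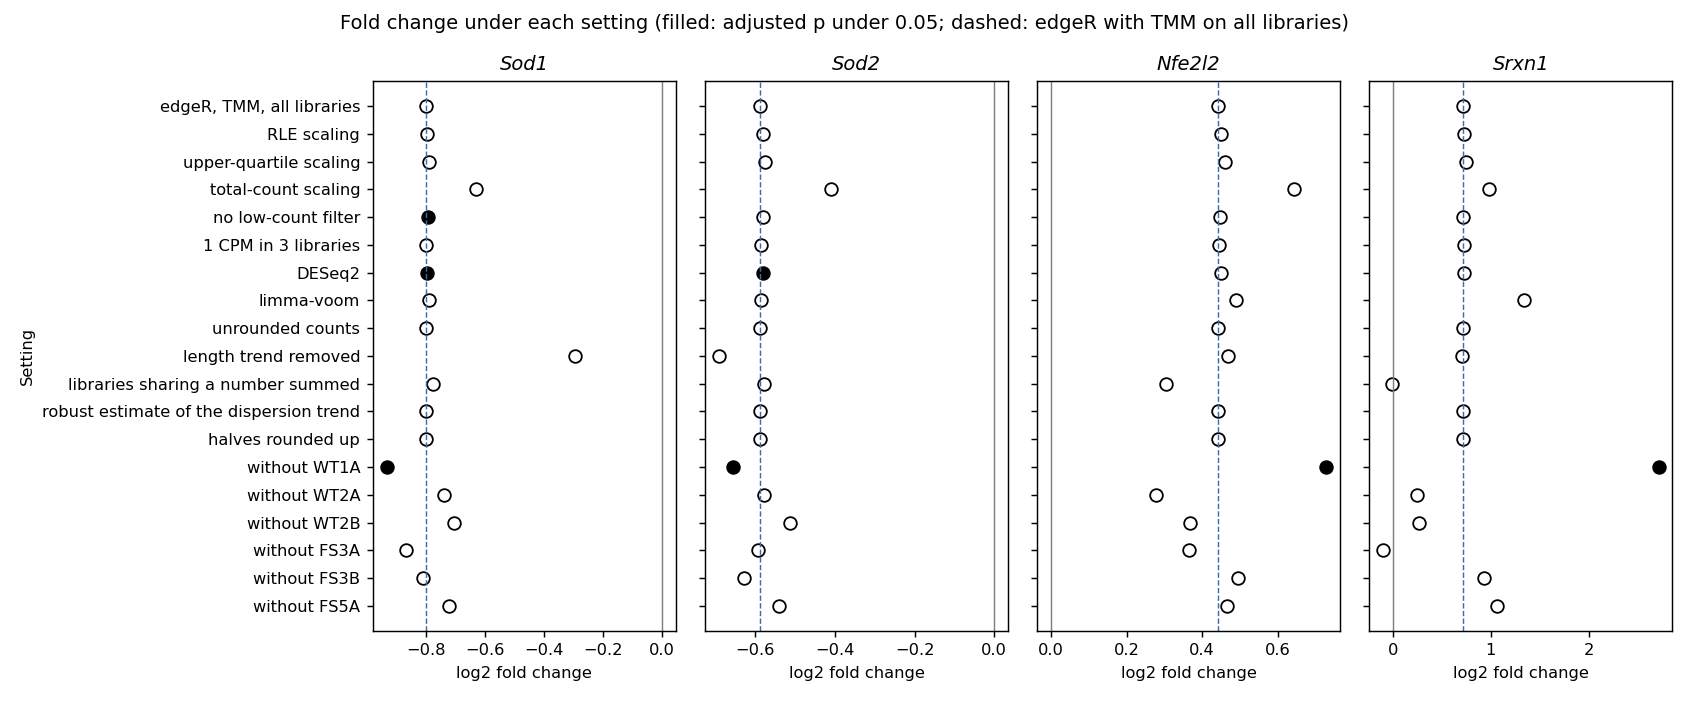
Log2 fold change (x axes) of Sod1, Sod2, Nfe2l2 and Srxn1 under each setting (y axis), filled where the adjusted p was under 0.05 and with a dashed line at the value from edgeR with TMM on all libraries. Sod1 stays between -0.93 and -0.29 and Sod2 between -0.69 and -0.41, whereas Srxn1 runs from -0.098 without FS3A to 2.71 without WT1A.

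Other genes of the pathway were described in 8 lists, by counts and medians beside all genes tested. Across these lists 2 genes passed in edgeR, both lower in C234W, and the other 103 did not, close to the 1.46% of all genes that passed (1.28% lower). Of all genes, 12.7% were called by DESeq2, an unadjusted p under 0.05 was reached by 11.9% higher and 13.5% lower, and 7052 of 14685 had a negative log2 fold change, with a median of 0.023. These shares stand behind each list count that follows. With total-count scaling the median of all genes was 0.20. Glrx5, a mitochondrial glutaredoxin of iron-sulfur cluster assembly, fell from 58.4 ± 17.5 to 23.6 ± 1.59 CPM (SD, n = 3 each; log2 fold change -1.31, SE 0.236, adjusted p = 0.0484). Pgls, the lactonase of the pentose phosphate pathway, fell from 47.8 ± 2.05 to 27.9 ± 1.74 CPM (SD, n = 3 each; log2 fold change -0.77, SE 0.148, adjusted p = 0.0488). Neither passed with the length trend removed (log2 fold changes -0.95 and -0.47, adjusted p = 0.127 and 0.153), with any of the 3 other scalings (adjusted p = 0.0503 to 0.0645), or when any 1 library other than WT1A was left out (adjusted p = 0.0868 to 0.237).

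The 13 tested regulators of NRF2 had a median log2 fold change of -0.35, with 9 negative (-0.12 and 8 with total-count scaling). Of the small MAF partners of NRF2, Mafk and Maff were negative (-0.31 and -0.35) and Mafg was positive (0.89). The competing repressors Bach1 (0.0081) and Bach2 (1.05) were positive. None passed in edgeR and 3 did in DESeq2. An unadjusted p under 0.05 was reached by 2 higher, Bach2 and Mafg, and by 5 lower. The smallest p belonged to Dpp3, a peptidase that binds KEAP1 (48.1, 72.7 and 64.2 CPM in wild type and 29.3, 39.1 and 39.4 CPM in C234W, adjusted p = 0.0707). The 24 glutathione and cystine genes, with Glrx5 as the 1 called, had a median of -0.19, which became 0.022 with the length trend removed and -0.0056 with total-count scaling. DESeq2 called 3 of them, and 5 were lower and 0 higher at an unadjusted p under 0.05.

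All 13 genes in the thioredoxin list had a negative log2 fold change, with a median of -0.34. The list is wider than thioredoxins and their reductases, and also holds Txnl4a, Sesn1 and Sesn2. The median was -0.22 with the length trend removed and -0.16 with total-count scaling, with 11 negative in each. Txnrd1, the cytosolic thioredoxin reductase gene, was counted with the members and not in this list, and its log2 fold change was 0.20. None of the 13 passed in edgeR, 3 were at an unadjusted p under 0.05 and DESeq2 called 2. Txn2, the mitochondrial thioredoxin, had the smallest p, with 191, 211 and 223 CPM in wild type and 145, 124 and 126 CPM in C234W (adjusted p = 0.056). Its groups did not overlap. With the length trend removed its log2 fold change went from -0.66 to -0.38 (edgeR, adjusted p = 0.188).

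Among the 12 enzymes of NADPH supply, Pgls passed in edgeR and DESeq2 called 3. An unadjusted p under 0.05 was reached by 1 higher and 2 lower. The median was -0.20 with 8 negative, and -0.0205 with 6 negative under total-count scaling. Of 18 quinone, carbonyl and conjugation enzymes none passed in edgeR (5 had an unadjusted p under 0.05, of which 2 were higher, and DESeq2 called 1), with a median of -0.23 (-0.044 with total-count scaling). The smallest p among them belonged to Aox1, an aldehyde oxidase, which was at 4.32, 1.94 and 2.06 CPM in wild type and at 20.04, 7.54 and 7.13 CPM in C234W (log2 fold change 2.06, SE 0.494, adjusted p = 0.0624). Every C234W library lay above every wild-type one.

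In the list of 12 haem and iron genes none passed in edgeR, with 1 lower at an unadjusted p under 0.05, the same number called by DESeq2 and a median of -0.11 (0.074 with total-count scaling). The smallest p belonged to Fth1, the ferritin heavy chain, with 1449, 1505 and 1712 CPM in wild type and 1087, 808 and 908 CPM in C234W (adjusted p = 0.0646). Its log2 fold change went from -0.74 to -0.52 with the length trend removed (edgeR, adjusted p = 0.171). The absolute level of Fth1 is uncertain, because processed pseudogenes of this gene exist and tags that map to several places were left out of the counts.

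The 9 genes listed under copper supply, extracellular dismutase and catalase also include the peroxiredoxin gene Prdx3 and the metallothionein genes Mt1 and Mt2. This list had a median of 0.14, and none passed in edgeR (an unadjusted p under 0.05 was reached by 2 higher and 1 lower, and DESeq2 called 1). Atox1, a copper chaperone, had the smallest p, with 24.3, 24.9 and 26.9 CPM in wild type and 15.7, 15.7 and 14.6 CPM in C234W (log2 fold change -0.73, SE 0.164, adjusted p = 0.0576). Its gene model, of 508 bases, is shorter still than that of Sod1. Correcting for length shrank the Atox1 estimate from -0.73 to -0.19 (edgeR, adjusted p = 0.575). Of 12 genes of the NADPH oxidases, which make superoxide, 4 passed the filter on low counts, none of them a catalytic subunit. Of those 4, 0 passed in edgeR, at an unadjusted p under 0.05 or in DESeq2. The smallest p was that of the small GTPase gene Rac1 (139, 205 and 208 CPM in wild type and 138, 168 and 110 CPM in C234W, adjusted p = 0.265).

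**Figure D5:**
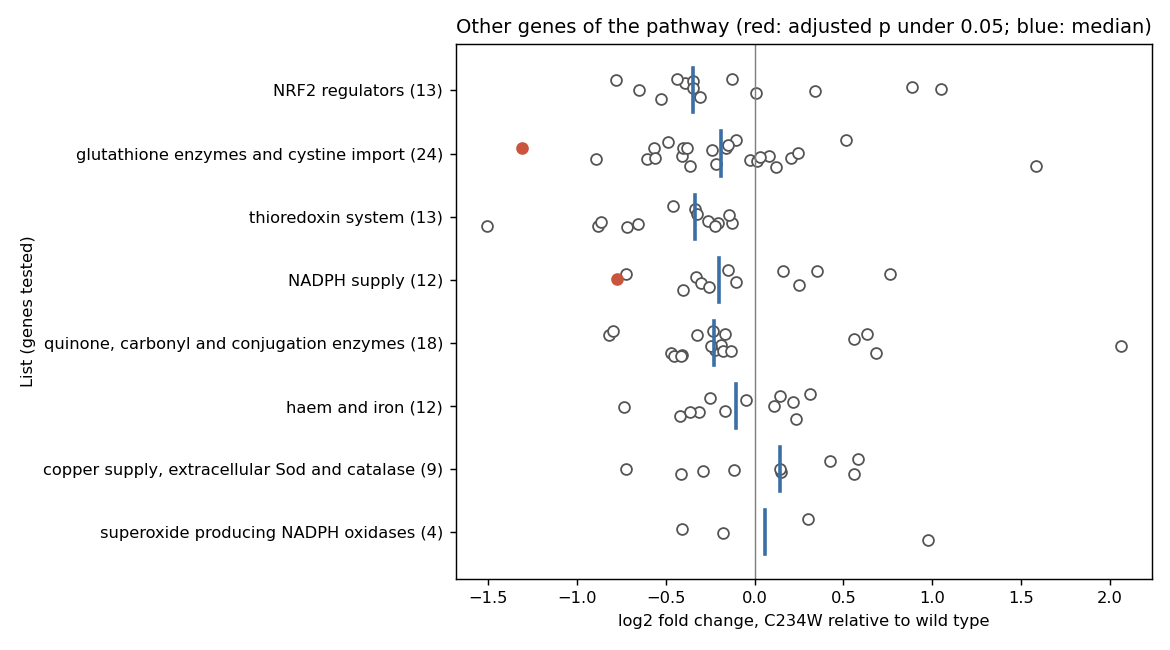
Log2 fold change of C234W relative to wild type (x axis) of each tested gene in 8 lists of the pathway (y axis, with the number tested), red where the adjusted p in edgeR was under 0.05 and with a blue bar at the list's median. The 2 red points are Glrx5 and Pgls, and all 13 genes of the thioredoxin list, which leaves out Txnrd1, lie left of 0 (11 with total-count scaling).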

How the data were processed

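Poly-A RNA of whole retina was sequenced in 6 strand-specific libraries, per the labels' protocols. The series' design text gives alignment to mm10 by STAR and gene counting by HOMER (4.11) over exons, on the minus strand, with a single isoform for each gene and multi-mapping tags left out. The submitters' processing notes name version 2.7.8a of STAR. The deposited values are estimated counts that per the file headers carry no normalization. They are not all whole, and were rounded to whole numbers, with ties to the even neighbour. The deposited gene model lengths were used for CPM per kilobase. Library totals ran from 19426580 to 26672412 tags, and 65.8 to 74.4% of them were counted in genes. No sample column was left out (0).

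In edgeR (4.0.16, under R 4.3.3), filterByExpr set the low-count filter and TMM the scaling. The 2 genotypes were compared over all 14685 genes with the quasi-likelihood test, and no covariate was added. The quasi-likelihood dispersion was estimated robustly, and the dispersion trend before it was not. Benjamini-Hochberg adjustment ran over all genes, with a threshold of 0.05. The SE is the log2 fold change over the square root of F. Positive fold changes mean higher in C234W. The series names DESeq in the authors' own analysis. Alternatives were DESeq2 (1.42.0), limma-voom (3.58.1), other scalings, filters and rounding, each library left out, libraries with a common number summed, and a loess trend of log2 CPM on log2 length (span 0.3) removed. The code was tested on simulated data. Motifs were searched by exact letters.

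The text names the 10 genes, Elovl2 and, in each list, the 2 called genes with the smallest p or, where none was called, the gene with the smallest p. Gfap, Cd68, Sox9, Crym, the MAF and BACH genes and the genes of the closing section were named after their values were seen. Prdx3, Txnl4a, Sesn1 and Sesn2 were named only for their place in a list. The members, the lists and the marker genes were chosen with earlier results of these data known.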

Additional observations from a re-analysis of the deposited data

How the results depend on the processing

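No paired analysis was possible because the columns carry no replicate number of the labels. With RLE, upper-quartile and total-count scaling, edgeR called 0, 0 and 0 genes of all tested (3753, 3805 and 4349 at an unadjusted p under 0.05), and with the length trend removed or libraries of the same number summed also 0 (2835 and 1799 at an unadjusted p under 0.05). In each of these 5 settings 0 genes of the pathway lists passed, against 2. DESeq2 called 1754 genes, 14 of them in the lists, and edgeR without a filter called 353. Leaving out 1 library gave 0 to 2775 genes overall and 0 to 23 in the lists, the highest without WT1A, and 4 overall without FS5A. Of the 10 genes, 1 passed without a filter, 2 in DESeq2, and 0 to 4 with 1 library left out (Nfe2l2, Srxn1, Sod1 and Sod2 without WT1A, none without any other).

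Sod1 passed without a filter (log2 fold change -0.79, adjusted p = 0.0471) and in DESeq2 (-0.79), and Sod2 in DESeq2 (-0.58). With 1 library left out, Sod1 ran from -0.93 to -0.71 (adjusted p = 0.0124 to 0.245), Sod2 from -0.65 to -0.51 (0.0198 to 0.273) and Srxn1 from -0.098 to 2.71 (0.0232 to 0.974). Srxn1 was -0.0035 and Txnrd1 -0.067 with libraries of the same number summed. With 1 library left out, Hmox1 ran from -0.31 (without FS3A) to 1.25, Txnrd1 from -0.16 (without FS3A) to 0.51, and Gclm from -0.21 to 0.052 (0.026 without WT2B, 0.052 without FS5A). Gclm also turned positive with total-count scaling (0.086) and with the length trend removed (0.0067), and Keap1 with total-count scaling (0.046). That scaling moved the median of all genes from 0.023 to 0.20, so Keap1 and Gclm remained below it. The cause of these shifts was not tested. A robust estimate of the dispersion trend (215 genes) and rounding ties up (216) were chosen after seeing the data.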

Other observations

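Other genes of the lists, chosen after their values were seen, also varied widely among the libraries of 1 genotype. Slc7a11, the cystine importer that feeds glutathione synthesis, was at 16.9, 1.29 and 2.35 CPM in WT1A, WT2A and WT2B, and at 32.2, 20.3 and 8.78 CPM in FS3A, FS3B and FS5A (edgeR, adjusted p = 0.307). Its 3 highest libraries were those of Srxn1. The metallothionein genes Mt1 and Mt2, which bind zinc and copper, were highest in FS3A (577 and 732 CPM) and lowest in FS5A (114 and 115 CPM), both C234W, as was Hmox1. In WT1A they stood at 388 and 506 CPM.

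WT1A also held the highest level of Maff, a small MAF partner of NRF2, at 203 CPM against 14.8 and 18.7 CPM in WT2A and WT2B and 100.3, 24.4 and 61.3 CPM in FS3A, FS3B and FS5A. Osgin1, a gene induced by oxidative stress, was at 12.5 CPM in WT1A and between 2.74 and 4.49 CPM in the other 5 libraries. Txnip, which binds and inhibits thioredoxin, was lowest in WT1A, at 3.79 CPM, against 44.7 and 32.2 CPM in WT2A and WT2B and 8.10, 9.30 and 11.1 CPM in FS3A, FS3B and FS5A. None of these 6 genes passed in edgeR.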
